A study of Caenorhabditis elegans with 4 samples.

Results

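Binding regions of the transcription factor DPL-1 that lie close to one another were examined in larvae of *Caenorhabditis elegans* in the first stage (L1), after feeding. The regions came from chromatin immunoprecipitation followed by sequencing (ChIP-seq), which finds DNA bound by a protein as local accumulations of reads, called peaks. Peaks of the list that combines both ChIP replicates were merged where they shared 1 bp or more, and a region was chosen by its position, as one whose midpoint lay under 2000 bp from the midpoint of the next merged region on either side. The 3195 peaks of the list gave 3162 merged regions, and 609 of them (19.3%) were closely spaced by this rule. The other 2553 had no neighbour under 2000 bp and are called isolated regions below. Of the 609 regions, 600 came from a single peak and 9 from 2 overlapping peaks.

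All 4 samples came from hermaphrodites of strain YL448 grown at 20 °C. The worms carry the *unc-119(ed3)* mutation and the integrated transgene vrIs83, in which the *ges-1* promoter drives DPL-1 fused to GFP and Flag with the *dpl-1* 3′ UTR, together with an *unc-119*(+) rescue. The 2 ChIP samples were collected with antibodies to GFP and each has an input sample of total chromatin DNA. The input samples have no peak list here and were not analysed. The labels name the strain as not outcrossed, and no control strain without the tagged protein is among the samples, so a region in the list is a place of GFP ChIP signal and not a proven DPL-1 site. The labels do not say whether replicates 1 and 2 were separate cultures.

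In the worm, DPL-1 stands for the DP family of proteins. These pair with E2F factors, and the pair binds DNA near genes needed for DNA replication and the cell cycle. With pocket proteins of the retinoblastoma family, which is represented in the worm by LIN-35, the same pairs take part in repression. The *ges-1* promoter is active in the intestine, so the tagged protein is expected mainly in a tissue whose cells go through rounds of DNA replication without division during larval growth. Worm genes are packed closely, and many share an operon or lie back to back with a neighbour. Genes are not assigned to the regions below, because the gene table at hand is of another assembly (WBcel235) than the peaks, which are in coordinates of WormBase build WS220. No sequence of build WS220 was used here either, so no motif was examined.

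Each peak carries a score and a number from the authors. Score is a poor guide to strength here, since 470 of the 609 closely spaced regions (77.2%, 95% exact binomial interval 73.6 to 80.5) share the list's highest score, against 79.8% of all merged regions. The authors also numbered the peaks from 1 to 3195, and no header says what the order is. The number was taken as a rank of strength, with 1 as the strongest and the best number standing for a merged region. It follows the score closely but not strictly: numbers 1 to 2539 share the highest score, and among the 656 peaks below it the Spearman rho of score and number across peaks was -0.95, with scores that increase from number 2540 to number 2728 and are lower for all later numbers. Across merged regions, the number had a rho of 0.96 with the number of the strongest overlapping peak in replicate 1 and of 0.93 with that in replicate 2. The lists hold no read counts, so the depth is unknown and each interval covers the counting of regions only. Because the rule used positions in a list made from the same 2 libraries as every other value, and because neighbouring regions are not independent, the comparisons with isolated regions are descriptions without a test.

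Most closely spaced regions stood in pairs. The 609 regions formed 276 clusters, in which each region lay under 2000 bp from the next. Pairs made up 231 of the clusters (83.7%, interval 78.8 to 87.9) and held 462 regions. There were 36 clusters of 3 regions, 7 of 4, 1 of 5 and 1 of 6. From the first to the last midpoint, pairs spanned a median of 1176 bp, clusters of 3 a median of 2265 bp and clusters of 4 a median of 3577 bp.

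Neighbouring midpoints under the limit lay a median of 1169 bp apart, with quartiles of 775.5 and 1588 bp over 333 distances. Only 23 of these were under 500 bp. Most regions are 324 bp wide and overlapping peaks were merged, so regions of that width cannot have midpoints under 324 bp apart. The part of width in the low number was not tested. Between 500 and 1000 bp there were 116, between 1000 and 1500 bp 95, and between 1500 and 2000 bp 99. The numbers went on declining beyond the limit, to 75 between 2000 and 2500 bp, 47 between 4500 and 5000 bp and 28 between 9500 and 10000 bp. From 20 to 50 kb there were 854 neighbours, or 14.2 per 500 bp. The limit of 2000 bp therefore cuts through a continuous range, with 20 distances in the last 100 bp inside it and 17 in the first 100 bp outside.

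**Figure D1:**
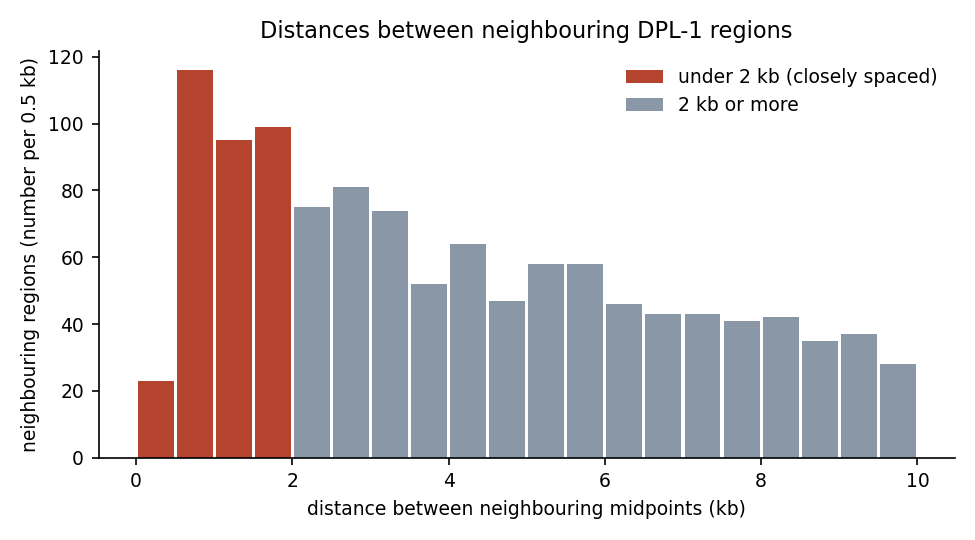
Distances between the midpoints of neighbouring merged regions of the combined list, as the number of neighbours in each bin of 500 bp, up to 10 kb. Bars under 2 kb are the distances that define the closely spaced regions, and the highest bar, from 500 to 1000 bp, holds 116.

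The regions next to the limit covered a wide range of ranks. Just inside, 5 couples of neighbours lay 1982 to 1996 bp apart. The widest of these was on chromosome IV, with number 2855 at 10481715 to 10482038 and number 1155 at 10483711 to 10484034. Just outside, 5 couples lay 2008 to 2033 bp apart, the first on chromosome III with number 1001 at 13268758 to 13269081 and number 3149 at 13270766 to 13271089. The peak numbers ran from 1155 to 3190 in the couples inside and from 98 to 3149 in those outside.

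The closest couples were not all resolved by the replicates. On chromosome II, number 482 at 5844702 to 5844782 and number 1453 at 5844800 to 5845123 had midpoints 219.5 bp apart, and both overlapped one and the same peak in each replicate, which replicate 1 numbered 501 and replicate 2 numbered 454. On the same chromosome, number 2570 at 1134536 to 1134859 and number 1117 at 1134897 to 1135009 lay 255.5 bp apart and met a single peak too, numbered 1258 by replicate 1 and 957 by replicate 2. These 2 couples are the only ones closer than the common width of 324 bp, and each counts as a region pair only in the combined list. The next closest was on chromosome I, where number 684 at 13161847 to 13162039 and number 2630 at 13162182 to 13162505 lay 400.5 bp apart. Its partners met separate peaks, numbers 646 and 13738 in replicate 1 and numbers 693 and 1781 in replicate 2. In the fifth closest couple, 408 bp apart within a cluster of 3 on chromosome III, each partner met a peak of 1 replicate only. Number 1930 at 8799825 to 8800148 met number 1287 of replicate 1, and number 3008 at 8800233 to 8800556 met number 1616 of replicate 2.

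Most pairs met separate peaks in both replicates, at similar spacing. For each region the strongest overlapping peak of a replicate list was taken. Matches were sought in the whole lists, of 24366 peaks in replicate 1 and 30000 in replicate 2, so a match can be weak. Of the 231 pairs, 225 met separate peaks in replicate 1 and 227 in replicate 2, and 223 did so in both (96.5%, interval 93.3 to 98.5). The other 8 were the 2 pairs that met a single peak and 6 with a partner missing from a replicate list. With 50% reciprocal overlap in place of 1 bp the share was 81.0% (75.3 to 85.8). Of all merged regions, 98.9% overlapped a peak of both lists by 1 bp. Shares for neighbours further apart are not given, so neither value is shown to be particular to pairs. Over the 223 pairs the spacing measured in replicate 1 and in replicate 2 differed by a median of 39 bp, with quartiles of 15 and 75.5 bp and a maximum of 351 bp. It differed by 100 bp or less in 189 pairs and by more than 200 bp in 5. The combined list was made from the same libraries, so the share of matches is not independent of the rule. Since a match requires overlap with the same combined regions, the spacings are bound to be near each other, and no test was made.

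**Figure D2:**
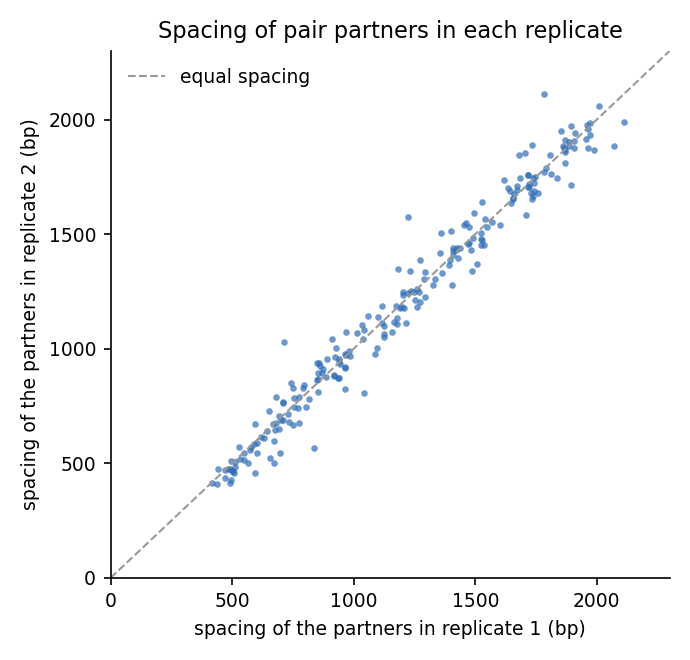
Spacing between the partners of each of 223 pairs, in bp, as measured from the strongest overlapping peaks of replicate 1 (horizontal axis) and replicate 2 (vertical axis), with 1 point per pair and a dashed line of equal spacing. Points follow the line, with a median difference of 39 bp.

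Closely spaced regions were found in both replicate lists nearly as often as regions in general. Of the 609, 598 (98.2%, interval 96.8 to 99.1) overlapped a peak of both lists, against 98.9% of all merged regions. Replicate 1 lacked 7 of them and replicate 2 lacked 4. Close spacing itself recurred when the same rule was applied to the 3195 strongest peaks of a single replicate. In replicate 1 alone, 456 of the 609 (74.9%, interval 71.2 to 78.3) overlapped a closely spaced region, against 16.3% of all merged regions and 2.27% of the isolated ones. In replicate 2 alone, 451 (74.1%, interval 70.4 to 77.5) did, against 17.3% of all and 3.72% of the isolated ones. In both, 335 (55.0%) did. The shares of closely spaced regions that were present at all in these lists were 86.5% and 85.9%, against 89.9% and 87.3% of isolated regions. Since the combined list was made from the same libraries, neither the overlap nor this recurrence is independent of the rule.

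Closely spaced regions had a weaker median peak number than isolated regions, a difference that was not tested. The median was 1743 (quartiles 969 and 2487) for closely spaced regions and 1545 (756 and 2358) for isolated ones. The strongest overlapping peak had a median number of 1743 in replicate 1 and 1628 in replicate 2 for closely spaced regions, and of 1545 and 1561 for isolated ones. The ranges overlap almost wholly, from number 10 to 3194 against 1 to 3195. On each of the 6 chromosomes the median number of closely spaced regions was higher, that is weaker, with 1475 against 1421 on III as the smallest gap and 1852 against 1440.5 on V as the largest.

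The share of closely spaced regions was lowest among the strongest regions. When the merged regions were put into 10 classes by peak number, 45 of the 317 strongest (14.2%, interval 10.5 to 18.5) and 69 of the 316 weakest (21.8%, interval 17.4 to 26.8) were closely spaced. The 8 classes between had 15.5% to 23.4%. Of the 100 strongest regions 12 were closely spaced and 88 were isolated. In the stronger 50% of the regions 17.1% (15.3 to 19.0) were closely spaced, and in the weaker 50% 21.4% (19.4 to 23.5). When the rule was run on the strongest 3195 peaks of replicate 1, the shares of the stronger and weaker 50% were 16.1% and 22.1%, and on those of replicate 2 they were 18.9% and 23.3%. Width went with rank as well, since the strongest 317 regions had a median width of 262 bp and none of them had the common width of 324 bp.

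**Figure D3:**
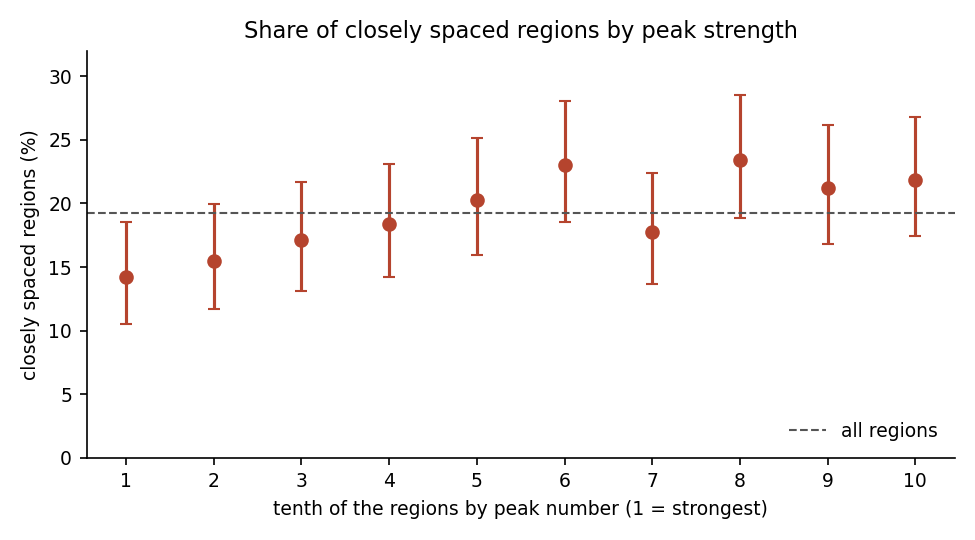
Closely spaced regions as a percentage of the merged regions in each of 10 classes by peak number, from the strongest (1) to the weakest (10). Bars are 95% exact binomial intervals and the dashed line is the share among all regions, 19.3%; the strongest class lies lowest at 14.2%.

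Within a pair the gap in strength was of the same order as between neighbours further apart. The stronger partner had a median number of 1066 (quartiles 570 and 1630) and the weaker one of 2387 (1717 and 2794.5). The gap between them had a median of 991 places, and it exceeded 1000 in 115 of the 231 pairs and 2000 in 27. It was 100 or less in 15. A number of 1000 or better was held by both partners in 18 pairs, by 1 partner in 92 and by neither in 121. Such a number was held by 31.6% of all merged regions and by 25.9% of the closely spaced ones. Across pairs the numbers of the left and right partner had a Spearman rho of -0.05, which is given as a description and whose sign was not stable to the choice of list. For neighbours further apart, the gap had a median of 965 places at 2000 to 5000 bp and of 887 at 10 to 50 kb. The stronger and weaker neighbour had median numbers of 887 and 2177 at 2000 to 5000 bp. At 10 to 50 kb these were 939 and 2215. The left partner was the stronger in 124 pairs and the right partner in 107. In clusters of 3, the middle region was the strongest in 16, the left one in 10 and the right one in 10.

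The replicates mostly placed the same partner first. In 186 of the 223 pairs matched in both (83.4%, interval 77.9 to 88.0) the same partner had the better number in replicates 1 and 2. The share was 82.4% (73.0 to 89.6) for partners under 1000 bp apart and 84.1% (76.7 to 89.9) for those further apart. It was 112 of 113 (99.1%) where the combined numbers differed by more than 1000 places, 47 of 53 where they differed by 501 to 1000, and 10 of 30 where they differed by 250 or less. The combined number draws on both replicates, so pairs on which these disagree are bound to have small gaps. No such share is given for neighbours further apart, so the agreement is not shown to be particular to close partners.

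The most unequal pair lay on chromosome III. Number 53 at 11719364 to 11719688 had a partner of number 3002 at 11718511 to 11718834, at 853.5 bp. Replicate 1 numbered the strong partner 75 and replicate 2 numbered it 41, and they numbered the weak one 2997 and 4159. On chromosome IV, number 94 at 4445754 to 4446031 stood 1305 bp from number 2963 at 4447036 to 4447359, which replicate 1 numbered 3249 and replicate 2 numbered 1870. On chromosome II, number 83 at 10300955 to 10301223 stood 588.5 bp from number 2895 at 10300339 to 10300662, numbered 7132 by replicate 1 and 3280 by replicate 2. The other two of the 5 most unequal pairs joined number 263 with number 2929 on chromosome IV and number 126 with number 2722 on chromosome V. In all 5 pairs the strong partner had a number of 314 or better in both replicates, and no weak partner had one better than 1595 in either. The weak partner of number 263 met no replicate 1 peak.

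Clusters were also ordered by the number of their weakest region, and the first 5 are given here. The one whose weakest region was strongest was a pair on chromosome III, with number 105 at 7498406 to 7498707 and number 179 at 7499468 to 7499724. These were numbers 91 and 155 in replicate 1 and numbers 128 and 228 in replicate 2, at a distance of 1039.5 bp. Next came a cluster of 3 on chromosome I, where number 204 lay at 534207 to 534452, followed by number 72 at 535318 to 535608 and by number 133, whose ends are 536777 and 537024. Its regions were numbers 195, 90 and 170 in replicate 1 and numbers 236, 60 and 112 in replicate 2, so all 3 had a number of 236 or better in both lists. A pair on chromosome I joined numbers 323 and 279 at 1858 bp. On chromosome IV a pair joined numbers 252 and 341 at 512 bp, and another joined numbers 122 and 383 at 1974 bp. Every region of these 5 clusters has the highest score of the list, as do all peaks numbered up to 2539.

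The strongest closely spaced region of all was number 10, on chromosome I at 12966736 to 12967105. Replicate 1 numbered it 13 and replicate 2 numbered it 8. Its partner, number 629 at 12968531 to 12968696, lay 1693 bp away. The best on chromosome IV was number 43 at 2676328 to 2676609, paired with number 2324, and the best on chromosome V was number 49 at 15189581 to 15189888, the middle one of 3 between numbers 703 and 1056. The best of chromosomes II and III were numbers 83 and 53, described above with their weak partners. On X the best was number 790 at 16929474 to 16929797, with numbers of 831 and 636 in replicates 1 and 2, and its partner was number 2527.

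The 9 clusters of 4 or more regions were made mainly of regions of middle or low rank. Only number 453, described below, was better than 1000, whereas 31.6% of all merged regions had a number of 1000 or better. The largest lay on chromosome II from 10541938 to 10549151 and held 6 regions over 6890 bp between its outer midpoints. In order along the chromosome their numbers were 1500, 3050, 2945, 2629, 2858 and 1022, so that the outermost regions were the strongest. The replicates gave these regions numbers of 1147 to 4533 in replicate 1 and of 773 to 27022 in replicate 2, where the region numbered 2629 met only the weak peak 27022. A cluster of 5 lay on X from 6740934 to 6744139, with numbers 1829, 2582, 2491, 2646 and 1338 over 2882 bp. Its outermost regions were the strongest too, in the combined list and in replicate 2. In replicate 1 the first region was number 3066, behind inner regions numbered 1988 and 2247. Each of its regions met a peak numbered 3507 or better in both replicates.

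The other 7 clusters held 4 regions each. The tightest lay on chromosome III from 12368304 to 12370251, with midpoints over 1624 bp and numbers 1777, 1348, 3056 and 1325. A second one on chromosome III, from 12612524 to 12617263, began with number 453 and went on with numbers 3137, 1287 and 1847. Number 453 was the strongest region in any of the 9, and replicates 1 and 2 numbered it 463 and 470. Chromosome II had a cluster from 6888173 to 6892073, with numbers of 2342 to 3175, and another from 11634116 to 11637597, with numbers of 1128 to 2872. Chromosome I had one from 1691268 to 1695997, with numbers of 1883 to 3194, and one from 7657173 to 7662386, with numbers of 2473 to 3190. Chromosome V had one from 13655233 to 13658975 with numbers of 1083 to 2184, and its weakest region was the best placed of the weakest regions in the 9 clusters. Chromosome IV had none.

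**Figure D4:**
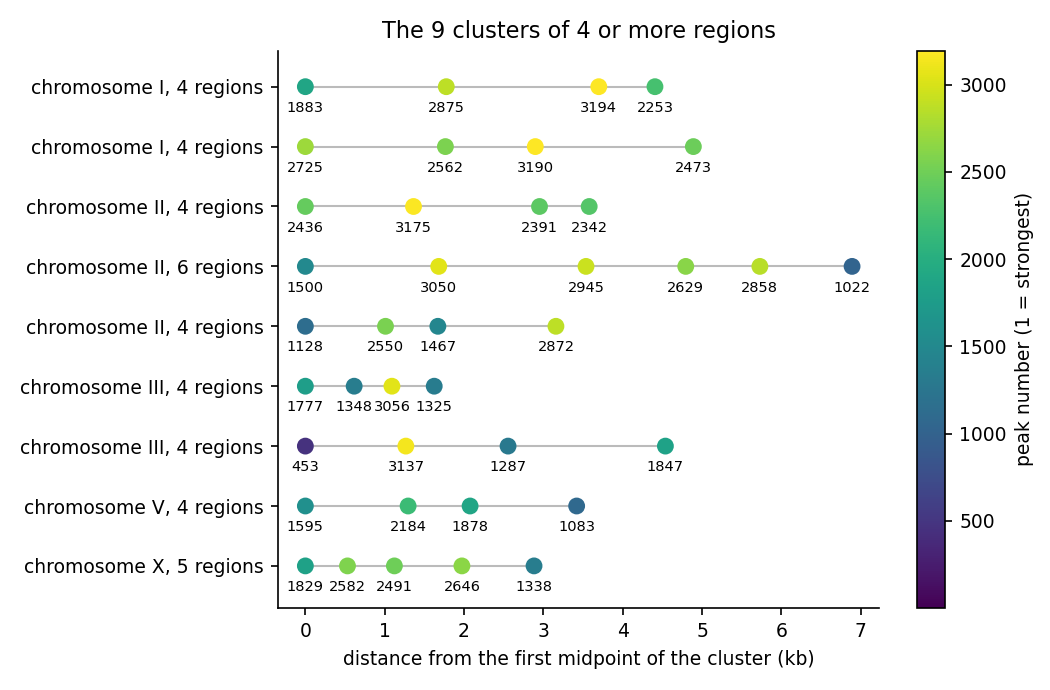
The 9 clusters of 4 or more closely spaced regions, each on its own line, with the distance in kb from the first midpoint on the horizontal axis. Each point is a region, labelled and coloured by its peak number (1 is the strongest); the longest line is the cluster of 6 on chromosome II, spanning 6890 bp, and only number 453 on III is better than number 1000.

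Closely spaced regions were unequally placed among the chromosomes. Chromosome I held 150 of them (24.6%), III 131 (21.5%), IV 124 (20.4%), II 96 (15.8%), V 75 (12.3%) and X 33. Of all merged regions, I held 21.4%, III 21.1%, IV 16.3%, II 17.1% and V 14.2%. X thus held 5.42% (interval 3.76 to 7.53) of the closely spaced regions, against 9.84% of all merged regions. As a share of the regions on a chromosome, X was lowest with 10.6% (7.42 to 14.6), and the 5 autosomes together had 20.2% (18.7 to 21.7). Among autosomes V was lowest with 16.7% (13.4 to 20.5) and IV highest with 24.1% (20.4 to 28.0). The share on III was 19.6% (16.7 to 22.8). Regions were fewest per Mb on X and V, at 17.7 and 21.5, and there were 29.6 per Mb on IV and 48.6 on III. The part of this density in the shares was not tested. Of the 45 clusters of 3 or more, chromosome IV had 14, I had 12 and X had 1. Of all 276 clusters, IV had 55, I had 68 and X had 15.

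Taken alone, each replicate gave the same lowest and highest chromosomes by its strongest 3195 peaks. X had 12.5% (8.88 to 16.8) in replicate 1 and 12.1% (8.82 to 16.05) in replicate 2, and IV had 24.2% (20.7 to 28.1) and 25% (21.3 to 29.0). Chromosome III stood at 18.0% in replicate 1 and 22.7% in replicate 2, so its place in the order was not stable. In the stronger 50% of the combined list, taken before merging and the rule, 0 of 128 closely spaced regions were from X. A limit of 3 counts would set the share that this allows at up to 2.34%, if regions were independent. They stood in 61 clusters, so the share allowed is higher than this limit. In the stronger 50%, 101 of the 1591 regions lay on X. Regions on X ranked lower, with a median number of 1993.5 for isolated regions against 1421 to 1575 on the autosomes. The part of this in the 0 was not tested.

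**Figure D5:**
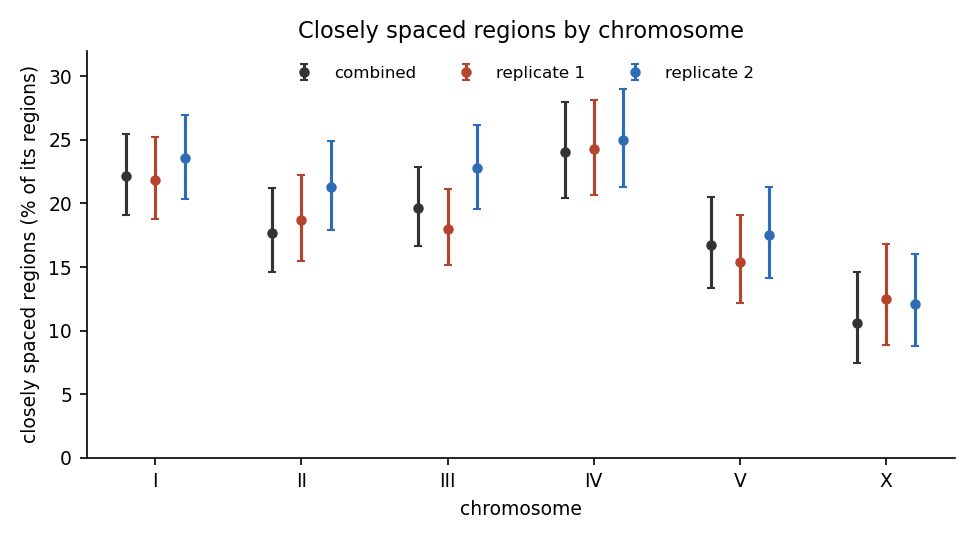
Closely spaced regions as a percentage of the merged regions on each chromosome, for the combined list and for either replicate's own strongest 3195 peaks. Bars are 95% exact binomial intervals; X is lowest in all 3 lists and IV highest.

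Along the chromosomes, 370 closely spaced regions (60.8%, interval 56.8 to 64.7) lay in the central 50% of the span between the outermost regions, against 58.3% of all merged regions. The share was 65.6% on II, 64.1% on III, 64% on V, 58% on I, 57.3% on IV and 51.5% on X. On V it was below the 68.4% of isolated regions, and on the other chromosomes it was above theirs.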

How the data were processed

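ChIP-seq peak lists of 2 ChIP samples and 1 list combining them were used, grouped by sample titles. Chromatin was fixed with 2% formaldehyde, per the labels' protocols. The authors deposited peaks on WormBase WS220 with a score per peak, per the file headers, and the method column names SPP, a peak caller, and IDR, the irreproducible discovery rate. The way the combined list was made, with the aligner, thresholds and use of the inputs, was not given in the sources used here. Scores have a ceiling and no stated scale, so peak numbers were used.

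Peaks sharing 1 bp were merged, midpoints and distances computed, and clusters formed by chaining neighbours under 2000 bp. Replicate matches needed 1 bp of overlap. Shares have 95% Clopper-Pearson intervals. No hypothesis test was made. Merging, clustering and overlap code was tested on simulated data. Regions named were the clusters of 4 or more, the 5 clusters with the strongest weakest region, the 5 most unequal pairs, the 5 closest and 5 widest couples, the 5 just outside the limit, and the best cluster per chromosome. For the couples and 2 of the unequal pairs only some are given in full. The regions and comparisons were chosen with earlier results of these data known. Python 3.11.15, numpy 2.4.6, pandas 2.3.3, scipy 1.17.1 and matplotlib 3.10.9 were used.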

Additional observations from a re-analysis of the deposited data

How the results depend on the processing

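Of 62 alternatives to 8 results, 38 kept their sign and stayed within a range around the reported value. For shares the range was the interval of the reported share. For medians and rho it was the reported value plus or minus a standard deviation. That deviation was taken between the values with either replicate left out. The share of closely spaced regions followed the limit, with 8.41% at 1000 bp, 13.8% at 1500 bp and 27.8% at 3000 bp, and it was 22.0% by facing edges, 8.05% in the stronger 50% of the list and 19.1% to 21.1% with 1 replicate left out. The median distance from a closely spaced region to its nearest neighbour was 1133 bp. It was 706.75 bp at a limit of 1000 bp, 911 bp at 1500 bp and 1509.5 bp at 3000 bp. With no merging it was 1021 bp, by facing edges 939 bp, and with 1 replicate left out 1082 to 1204 bp. Pairs were 92.9% of clusters at 1000 bp and 90.2% in the stronger 50%. Closely spaced regions were weaker by 6.23 percentile points in the median, by 4.21 at 1500 bp, 2.80 in the stronger 50% and 6.94 to 9 with 1 replicate left out. The share on X was 0% in the stronger 50%. The rho of partners, -0.05, was -0.14 at 1000 bp, 0.013 at 3000 bp, 0.099 in the stronger 50% and 0.020 to 0.11 with 1 replicate left out, so its sign was not stable. With 50% reciprocal overlap, 89.3% of closely spaced regions met a peak of both replicates and 81.0% of pairs met separate peaks in both. By construction, a wider limit or facing edges count more neighbours, and a stricter overlap gives fewer matches. Cutting the list to its stronger 50% before the rule removes neighbours, which lowers the share by construction. The 17.1% given above for the stronger 50% of the regions counted weaker neighbours too, so 8.05% is not comparable with it. The cause of the other changes was not tested. No paired analysis was possible because only ChIP samples have peak lists here and no groups were compared. The lists give no depth, so a missing neighbour is not shown to be unbound.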

Other observations

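Many peaks of the replicate lists overlapped no region of the combined list, and some of these lay between the partners of a pair. Replicate 1 had such a peak between the midpoints in 25 of the 231 pairs (10.8%, 95% exact binomial interval 7.13 to 15.6) and replicate 2 in 54 (23.4%, interval 18.1 to 29.4), and 16 pairs had one in both. Where the partners lay under 1000 bp apart, such a peak was found in 1 of 97 pairs in replicate 1 and 3 of 97 in replicate 2. Where the partners lay 1000 bp or more apart it was found in 24 of 134 and 51 of 134. Closer partners have less room between them, and the part of room in these counts was not tested. Shares for stretches of the same length elsewhere are not given, so the counts are not shown to be low or high.

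Peaks outside the combined list were also counted around each region. Within 2 kb of a midpoint, where partners take up part of the room, there were 0.218 per kb around closely spaced regions and 0.222 around isolated ones in replicate 1, and 0.324 and 0.311 in replicate 2. Between 2 and 5 kb there were 0.285 and 0.241 in replicate 1, and 0.381 and 0.306 in replicate 2. Between 5 and 10 kb the values were 0.240 and 0.229 in replicate 1 and 0.306 and 0.293 in replicate 2. Windows of neighbouring regions overlap, so the same peak counts more than once around a cluster, and no test was made. Of the closely spaced regions, 72 (11.8%, interval 9.37 to 14.7) overlapped 2 or more replicate 1 peaks, against 198 of the 2553 isolated regions (7.76%, interval 6.75 to 8.86). In replicate 2 these were 37 (6.08%, interval 4.31 to 8.28) and 117 (4.58%, interval 3.80 to 5.47).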
